A study of Mus musculus with 16 samples.

Results

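The 7 genes described here encode enzymes of fatty acid synthesis in the liver: Acly, Acss2, Acaca, Fasn, Elovl6, Fads2 and Gpam. They were chosen by name, with earlier results of these data known, and each was read by a single probe of a bead array, found through the gene number in the probe identifier. All 7 probes were among the 11317 tested of 24048 on the array, and 7413 genes could be named in all. Liver RNA came from male mice of 23 weeks, 7 carrying a Lactb transgene and 9 FVB wildtype. Every animal, wildtype included, had eaten chow with 4% fat until 11 weeks of age and chow with 6% fat from then on. The labels do not state what drives the transgene, which founder line was used, or whether the animals were littermates or had fasted. Lactb itself has no named probe, so its level was not analysed here and the genotype labels stand without that check. Each array is 1 mouse, and p-values measure the spread between mice, technical spread included. Levels are the log2 of background-corrected and quantile-normalized intensity, and they are compared between animals for a probe, never between probes.

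Fatty acid synthesis turns surplus carbohydrate carbon into fat in the cytosol of hepatocytes. ATP citrate lyase and acetyl-CoA synthetase make acetyl-CoA, acetyl-CoA carboxylase turns it into malonyl-CoA, and fatty acid synthase builds palmitate from both. Elongases and desaturases in the endoplasmic reticulum then lengthen and unsaturate the chain, and acyltransferases attach it to glycerol phosphate. In liver these genes are known as targets of SREBP-1c, a membrane-bound transcription factor activated by insulin, and several also answer to LXR and ChREBP, whereas SREBP-2 mainly serves cholesterol synthesis.

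None of the 7 enzymes passed the threshold between genotypes, an adjusted p under 0.05 in limma over all tested probes. Neither did any other probe (0 of 11317, or 0% of all), and 332 probes had an unadjusted p under 0.05, which is 2.93% of all. Acaca was the only enzyme of the 7 among them. The mean was higher in transgenic liver for 5 of the 7 genes and lower for Fads2 and Gpam, where 48.7% of all tested probes had a higher mean. The median difference of the 7, transgenic minus wildtype, was 0.091 on the log2 scale, against -0.0041 over all tested probes. Their 95% intervals ran together from 0.606-fold to 1.59-fold. The genotypes overlapped for all 7 enzymes, and of all tested probes 0.00884% (1 probe) did not overlap.

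**Figure D1:**
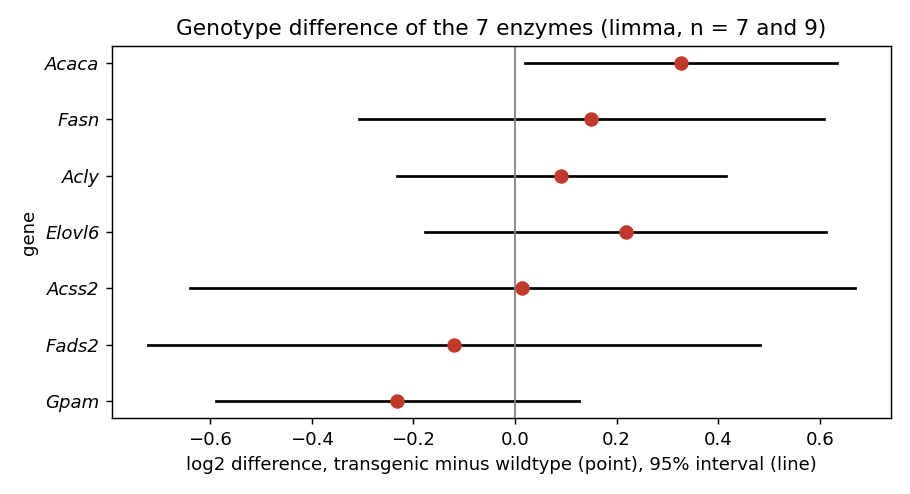
Log2 difference of the 7 enzymes between genotypes (horizontal axis, transgenic minus wildtype; points, limma estimate; lines, 95% interval; 7 transgenic and 9 wildtype animals). The interval of Acaca lies between 0.019 and 0.63, and the intervals of the other 6 genes include 0.

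Acly, ATP citrate lyase, cleaves citrate exported from mitochondria into acetyl-CoA and oxaloacetate. Its gene lies on chromosome 11, from 100476352 to 100528000 (GRCm38.p6). Its log2 level had a lowest, median and highest value of 11.11, 11.45 and 11.87 in transgenic liver and of 10.97, 11.36 and 12.12 in wildtype liver. The genotypes overlapped over nearly their whole range, with wildtype replicate 1 highest and transgenic replicate 1 next. Mean levels were 11.44 ± 0.32 (SD, n = 7) and 11.35 ± 0.33 (SD, n = 9), a difference of 0.091 (SE 0.15, limma adjusted p = 0.938).

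Acss2, the cytosolic and nuclear acetyl-CoA synthetase that activates free acetate, lies on chromosome 2 from 155518043 to 155562743. Its deposited intensity was 2716 and 2162 units in transgenic replicates 1 and 2, and 588.2 to 812.7 units in the other 5 transgenic animals. Among wildtype animals it was 2076 in replicate 1, 1578 in replicate 8 and 1006 in replicate 2, and 690.1 to 979.4 in the other 6. Each genotype therefore held a few animals of high and several of low level, and the spread inside a genotype was far wider than the distance between the means. On the log2 scale the mean of transgenic liver was 10.05 ± 0.85 (SD, n = 7) and that of wildtype liver 10.04 ± 0.53 (SD, n = 9). That is a difference of 0.015 (SE 0.31, limma adjusted p = 0.995), with 2 of 7 transgenic animals above the wildtype mean. The difference was 0.35 (SE 0.15, limma adjusted p = 0.9996) with the first principal component (of all tested probes except the 7 enzymes) as a covariate, and its sign turned when any of 7 single animals was left out. Across the 16 animals the highest level was 4.52-fold the lowest, the widest range of the 7 genes.

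Acaca encodes the cytosolic acetyl-CoA carboxylase, which makes malonyl-CoA and sets the pace of the pathway. It lies on chromosome 11 from 84129635 to 84401651. The lowest, median and highest log2 levels were 10.93, 11.08 and 11.58 in transgenic and 10.34, 10.98 and 11.30 in wildtype liver. All 7 transgenic animals were above the wildtype mean, though the ranges overlapped, and the 3 lowest levels belonged to wildtype replicates 2, 9 and 8. The mean was 11.21 ± 0.27 (SD, n = 7) against 10.88 ± 0.34 (SD, n = 9), a 1.25-fold higher mean (difference 0.33, SE 0.15, 95% interval 0.019 to 0.63). The unadjusted p in limma was 0.0386 and the adjusted p 0.932, so the difference did not pass. With that principal component as a covariate the Acaca difference was 0.21 (unadjusted p = 0.0797, limma adjusted p = 0.9996).

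Fasn, fatty acid synthase, carries out every step from malonyl-CoA to palmitate on a single polypeptide. The gene is on chromosome 11 from 120805958 to 120825166. Its log2 level had a lowest, median and highest value of 10.53, 10.73 and 11.30 in transgenic and of 9.77, 10.58 and 11.58 in wildtype liver. Wildtype animals held both ends of the range, with 865.2 and 904.7 intensity units in replicates 4 and 2 and 3028 in replicate 1. All transgenic animals lay between those ends. The means were 10.83 ± 0.31 (SD, n = 7) and 10.68 ± 0.57 (SD, n = 9), a difference of 0.15 (SE 0.22, limma adjusted p = 0.933).

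Elovl6, the elongase that extends palmitate to stearate, is on chromosome 3 from 129532386 to 129638495. The lowest, median and highest log2 levels were 8.26, 8.84 and 9.49 in transgenic and 7.91, 8.48 and 9.35 in wildtype liver. Transgenic replicate 2 and wildtype replicate 1 were highest and wildtype replicate 4 was lowest. Means were 8.74 ± 0.44 (SD, n = 7) and 8.52 ± 0.38 (SD, n = 9), a difference of 0.22 (SE 0.19, limma adjusted p = 0.932). With the first principal component as a covariate this grew to 0.37 (SE 0.14, unadjusted p = 0.0206, limma adjusted p = 0.9996), still short of the threshold.

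Fads2, the delta-6 desaturase that begins the conversion of linoleic and alpha-linolenic acid to longer polyunsaturated fatty acids, lies on chromosome 19 from 10062765 to 10101503. Its intensity was 1426 and 1160 units in transgenic replicates 2 and 1, and 436.8 to 611.1 in the other 5 transgenic animals. In wildtype replicates 9, 1, 2 and 8 it was 1371, 1116, 930.9 and 857.0, and in the other 5 wildtype animals 392.7 to 631.1. The levels formed a high and a low set of animals with a gap between them, and both genotypes took part in each set. The mean log2 level was 9.50 ± 0.67 (SD, n = 7) in transgenic liver against 9.62 ± 0.59 (SD, n = 9) in wildtype liver, a difference of -0.12 (SE 0.29, limma adjusted p = 0.954). The sign of this difference turned with the first principal component as a covariate (0.20, SE 0.11, limma adjusted p = 0.9996).

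Gpam, the mitochondrial glycerol-3-phosphate acyltransferase that starts glycerolipid assembly, lies on chromosome 19 from 55067635 to 55127319. Its probe was dim, with 8.4 to 86.8 intensity units, and stood above the noise limit on 13 of 16 arrays. Transgenic replicate 3 and wildtype replicates 3 and 4 were below the limit. Wildtype replicates 9, 8 and 1 were the 3 highest. Mean log2 levels were 6.38 ± 0.28 (SD, n = 7) and 6.61 ± 0.42 (SD, n = 9), a difference of -0.23 (SE 0.17, limma adjusted p = 0.932). The offset added before the logarithm compresses folds at this brightness, so the size of the Gpam difference is uncertain.

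**Figure D2:**
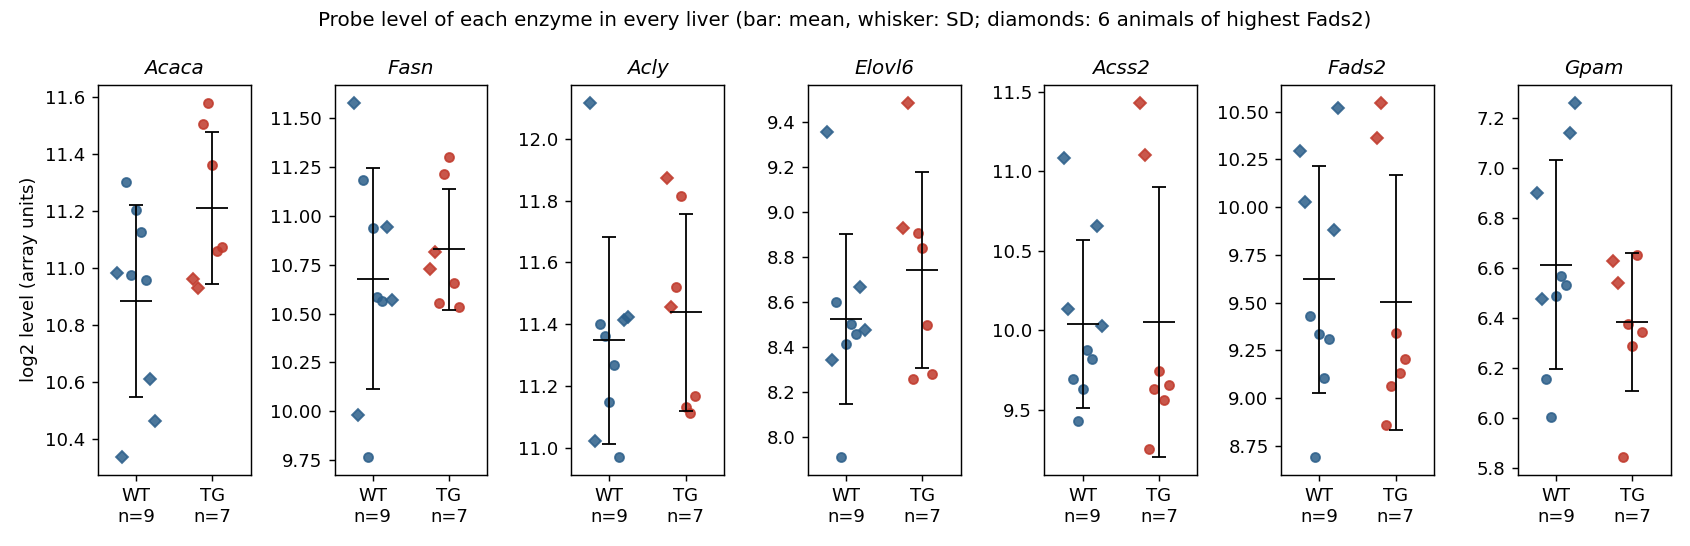
Log2 probe level of each enzyme (vertical axis, array units, its own scale per gene) in 9 wildtype (WT, blue) and 7 transgenic (TG, red) livers, with mean and SD in black; diamonds mark the 6 animals of highest Fads2. The genotypes overlap for every gene, while the diamonds lie above all other animals for Fads2 and Acss2 and low for Acaca.

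The enzymes did not all order the animals alike. The 6 highest Fads2 levels were those of transgenic replicates 1 and 2 and wildtype replicates 1, 2, 8 and 9, from 9.88 to 10.55 on the log2 scale, and the other 10 animals reached 9.43 at most. The same 6 animals held the 6 highest Acss2 levels, from 10.03 to 11.43, against 9.87 at most in the others. In the deposited intensities this order had 1 exception, since Acss2 was 937.9 in wildtype replicate 9 and 979.4 in wildtype replicate 6, which is not among the 6. Fads2 separates the 6 animals by the way they were picked. Of the other 6 enzymes, Acss2 alone was higher in each of them than in the other 10. Of all tested probes 4.61% were higher in this way, 5.96% were lower and 10.6% were either. These animals are a set defined from the data and not a group of the study, and this order is a description with no test.

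The other 5 enzymes overlapped between those animals. Acaca ran the opposite way, with 5 of the 6 animals among its 6 lowest levels and the remaining 1, wildtype replicate 1, ranked 9 of 16 from the top. For Acly, Elovl6 and Gpam 4 of the 6 animals were among the 6 highest, and for Fasn 2 were among the 6 highest and 2 among the 6 lowest. Fasn and Acaca, which encode successive steps, therefore ordered the animals differently from Acss2 and Fads2.

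**Figure D3:**
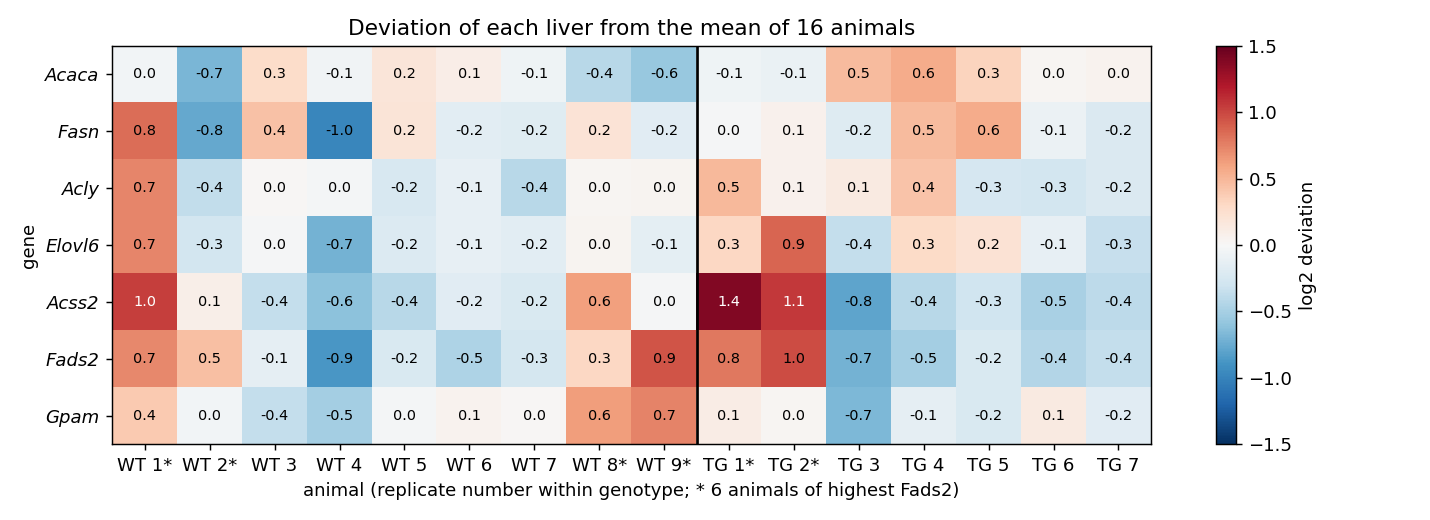
Log2 deviation of each liver from the mean of 16 animals (rows, genes; columns, 9 wildtype and 7 transgenic animals by replicate number; red, above the mean; blue, below). Starred animals, the 6 of highest Fads2, are red or white for Acss2 and Fads2 and mostly blue for Acaca, and wildtype replicates 1 and 2 differ although both are starred.

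These 6 animals were also those below the widest gap on the first principal component, computed without the enzymes. That component held 57.2% of the variance, where the second held 7.1%. The gap ran from -25.8 to -2.4. The number 6 was itself taken from this gap, so the agreement in number is by construction. Wildtype replicates 3 and 7 lay at -2.4 and 6.9, and the remaining animals above the gap at 16.6 or more. The 6 animals included 2 transgenic and 4 wildtype animals. Their arrays detected 9907 to 10252 probes, and the other arrays 9956 to 11564. Of the 12 macrophage markers listed, 6 were measured and 5 were lower in each of the 6 animals than in every other animal. Of all tested probes 5.96% were lower in this way. The mean log2 level over the macrophage list was 6.68 to 7.02 in the 6 animals against 8.38 to 10.21. Gpnmb, Mmp12 and Cd68 were not above background on any of the 6 arrays and were on all 10 others. They therefore entered the tested probes through those 10 animals alone. The share of all probes with such a detection pattern is not given here, so these counts are a description. Among stellate cell and fibroblast markers, Col3a1 was above background on 0 of the 6 arrays and 8 of the 10, and Col1a1 on 2 and 10. Col3a1 too entered the tested probes through the 10 animals alone. Dcn was lower in the 6 animals (11.66 to 11.97) than in all others (12.09 to 12.62), while Colec11 and Reln overlapped. The lymphocyte gene Ighm was higher (7.78 to 8.49 against 6.94 to 7.48), while Cd3e and Igkc overlapped. The part of these markers in the order of the enzymes was not tested. Of the 8 genes listed as adipocyte markers, Car3 and Fabp4 were measured. Their mean level was 10.18 to 10.49 in the 6 animals and 9.88 to 10.14 in the others. Each gene by itself overlapped between these sets. Car3 ran from 13.97 to 14.31 against 13.27 to 14.03, and Fabp4 from 6.31 to 6.68 against 6.00 to 6.68. Car3 was above background on all 16 arrays and Fabp4 on 12. Which cells the Car3 signal came from was not tested, so this mean is not a measure of adipocytes. The 5 hepatocyte markers measured, Apoa1, Apoa2, Trf, Ass1 and Serpina1a, were above background on all 16 arrays, with a mean level of 14.24 to 14.34 in the 6 animals and 13.78 to 14.09 in the others. Serpina1a alone separated these sets (12.67 to 13.15 against 11.17 to 12.20), and the other 4 markers overlapped. In whole tissue, fewer hepatocytes and less RNA per hepatocyte cannot be told apart. Genotypes overlapped on these lists too: both had animals with a macrophage mean of 7.02 or less (lowest 6.68 in transgenic and 6.81 in wildtype liver) and animals with 8.38 or more.

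Because the animals fall into separate sets, pairs of enzymes were correlated within the 6 and within the 10 animals. Deviations from the genotype means over all 16 animals were used, so a genotype difference inside a set can remain in r. In the 10 animals Fasn and Elovl6 rose and fell together, with Pearson r = 0.89 (permutation p = 0.00035, adjusted p = 0.0147) and Spearman rho = 0.90 (permutation p = 0.00103, adjusted p = 0.0433). With the 2 animals farthest from the median Fasn level left out, r was 0.83. This was the single pair of 42 tests (21 pairs in each set) to pass. It no longer passed without transgenic replicate 5 (r = 0.86), without wildtype replicate 4 (r = 0.83) or with no normalization beyond the authors' scaling (r = 0.85). In the 6 animals the same pair gave r = 0.75 (exact permutation p = 0.0694, adjusted p = 0.292), which rests on the 2 farthest animals (r = 0.015 without them).

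The pair with the next smallest p was Fasn and Fads2 in the 10 animals (r = 0.81, rho = 0.66, permutation p = 0.00539, adjusted p = 0.113). Its r fell to 0.48 without the 2 farthest animals, so it rests on them. In the 6 animals Acaca and Fasn gave r = 0.95 (rho = 0.83, exact permutation p = 0.0194, adjusted p = 0.166) and Acaca and Acly r = 0.92 (rho = 0.83, exact permutation p = 0.0181, adjusted p = 0.166). Without the 2 farthest animals these were 0.37 and 0.40, each from 4 animals. In the 10 animals Acaca and Acly gave r = 0.68 (rho = 0.76, permutation p = 0.0317, adjusted p = 0.166). Without the 2 farthest of the 10 this r was 0.63. Acss2 and Fads2 gave r = 0.57 (permutation p = 0.0866, adjusted p = 0.331) within the 10. In all, r was above 0 for 19 of 21 pairs in the 6 animals and for 17 of 21 in the 10, with medians of 0.45 and 0.44. The 21 pairs share 7 genes and are not independent. The same share over pairs of all tested probes is not given here, so these counts are a description.

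**Figure D4:**
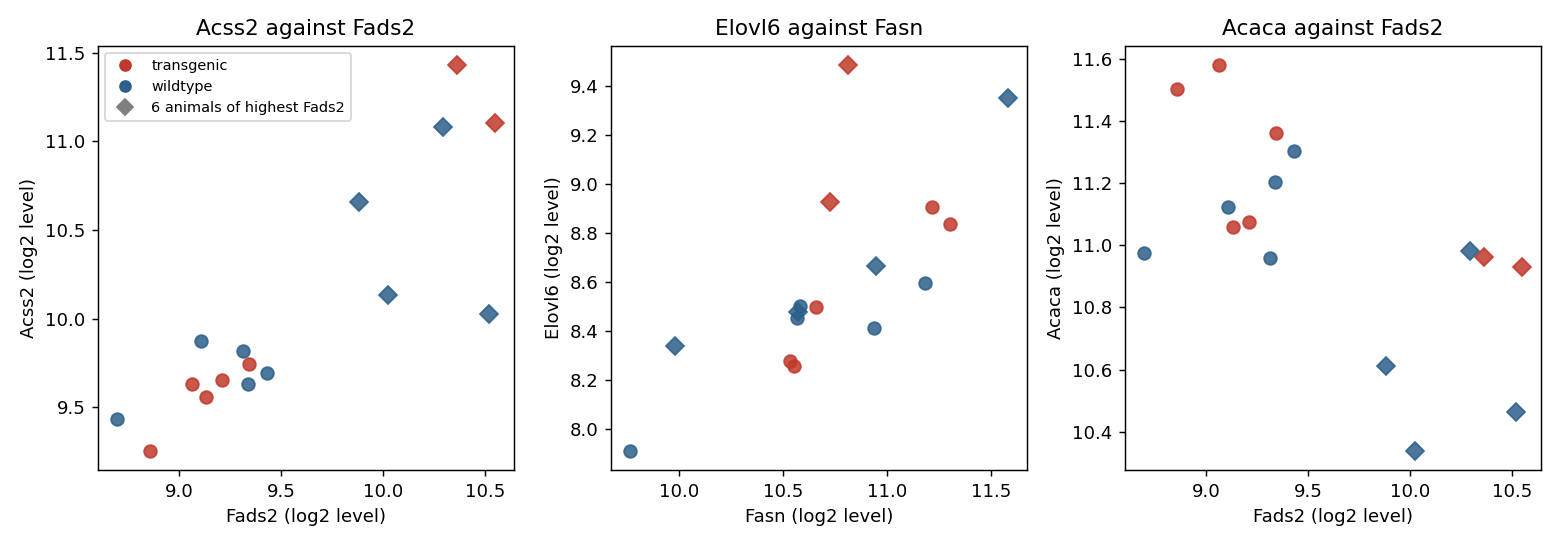
Log2 levels of Acss2 against Fads2, Elovl6 against Fasn and Acaca against Fads2 in 16 animals (red, transgenic; blue, wildtype; diamonds, the 6 animals of highest Fads2). The first panel shows a high and a low set of animals, the middle panel a continuous relation, and the last panel Acaca low in 3 diamonds. Among the 10 round points of the middle panel r was 0.92 for the levels drawn and 0.89 for deviations from the genotype means.

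Promoters are shown for the pair that passed the correlation test, Fasn and Elovl6, and for Fads2, by which the 6 animals were picked, with Acss2. Each run is 300 bases from RefSeq (GRCm38.p6), from 250 bases before the transcript start to 50 after it, 5′ to 3′ on the gene's strand, and all 7 members matched the table. Capitals mark letters found on either strand for CCAAT, the box bound by NF-Y, for GGGCGG, the GC box of Sp1 and its relatives, for CACGTG, an E-box, and for TCACNCCAC, letters of a sterol regulatory element.
Fasn, chr11:120824498-120824797, minus strand: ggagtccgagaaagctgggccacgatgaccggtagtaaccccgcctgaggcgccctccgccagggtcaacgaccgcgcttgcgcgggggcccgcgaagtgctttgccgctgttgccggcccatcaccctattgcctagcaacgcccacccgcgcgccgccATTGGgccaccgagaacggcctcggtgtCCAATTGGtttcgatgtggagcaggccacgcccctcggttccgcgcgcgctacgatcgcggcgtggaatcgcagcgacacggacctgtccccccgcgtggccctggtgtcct
Elovl6, chr3:129532136-129532435, plus strand: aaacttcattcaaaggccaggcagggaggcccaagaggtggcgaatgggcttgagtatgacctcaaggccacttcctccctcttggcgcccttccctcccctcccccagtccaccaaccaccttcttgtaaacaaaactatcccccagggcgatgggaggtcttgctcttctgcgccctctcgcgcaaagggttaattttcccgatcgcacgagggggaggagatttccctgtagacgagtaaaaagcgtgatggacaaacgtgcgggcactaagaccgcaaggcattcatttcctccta
Acss2, chr2:155517793-155518092, plus strand: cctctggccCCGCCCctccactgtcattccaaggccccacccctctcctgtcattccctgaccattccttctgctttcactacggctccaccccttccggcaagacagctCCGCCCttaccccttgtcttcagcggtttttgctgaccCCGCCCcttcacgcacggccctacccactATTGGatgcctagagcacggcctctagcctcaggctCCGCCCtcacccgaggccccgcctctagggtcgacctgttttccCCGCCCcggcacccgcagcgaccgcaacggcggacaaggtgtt
Fads2, chr19:10101454-10101753, minus strand: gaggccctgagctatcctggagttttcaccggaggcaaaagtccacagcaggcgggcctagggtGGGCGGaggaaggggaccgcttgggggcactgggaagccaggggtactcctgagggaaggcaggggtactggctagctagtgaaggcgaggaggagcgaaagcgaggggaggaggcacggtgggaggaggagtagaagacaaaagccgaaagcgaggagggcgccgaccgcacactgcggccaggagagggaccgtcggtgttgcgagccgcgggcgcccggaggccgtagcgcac
The Fasn window holds 3 CCAAT boxes, of which the pair nearest the start share letters in CCAATTGG. Acss2 holds 5 GC boxes and 1 CCAAT box, Fads2 holds 1 GC box, and Elovl6 holds none of the 4 motifs. CCAAT occurs in 37.4% of the 32851 promoter windows in the table and GGGCGG in 35.7%. CACGTG (7.15% of windows) and TCACNCCAC (1.24%) were not found in the window of any of the 7 enzymes, which says only that these letters are not in these windows.

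The enzymes also differed between animals close to each other on the first principal component. Wildtype replicates 1 and 2 carry the same number in their titles and lay 0.4 apart on the first principal component, yet all 7 enzymes were higher in replicate 1, where 49.6% of all tested probes were. Fasn was 3.03-fold higher, and 99.8% of the tested probes differed by less. Acly was 2.13-fold, Elovl6 2.02-fold, Acss2 1.93-fold and Acaca 1.56-fold higher, with 95.2% or more of the tested probes differing by less in each case. Fads2 and Gpam, at 1.20-fold and 1.34-fold, stood out less. The median size of the difference over the 7 enzymes was 0.95 on the log2 scale, against 0.18 over all tested probes.

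Other pairs with a common title number varied in this respect. Wildtype replicates 4 and 5 differed 2.25-fold in Fasn, with 6 of the 7 enzymes higher in replicate 5, where 47.1% of all tested probes were, and Acly 1.16-fold higher in replicate 4. All 7 enzymes were higher in transgenic replicate 4 than in replicate 3, where 49.7% of all tested probes were, led by Fasn (1.58-fold) and Elovl6 (1.57-fold). Transgenic replicates 3 and 5 were mixed, with Fasn 1.68-fold higher in replicate 5 and Acaca and Acly 1.10-fold and 1.31-fold higher in replicate 3. Transgenic replicates 4 and 5 differed most in Acly (1.60-fold) and by 1.06-fold in Fasn. Wildtype replicates 6 and 7 had the smallest median difference of these pairs, 0.056 over the 7 enzymes against 0.137 over all tested probes. Acly still differed 1.23-fold between them, and 83.8% of the tested probes differed by less. These pairs were set side by side after their values were seen, each is 1 animal against another, and no test was made.

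Inside a genotype the enzymes spread more than most probes. The SD around the genotype means was 0.68 for Acss2, 0.63 for Fads2, 0.47 for Fasn and 0.40 for Elovl6, against a median of 0.20 over all tested probes. Acss2 exceeded 97.4% of the tested probes in this respect, and Acaca, the lowest of the 7 at 0.31, exceeded 83.1%.

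Other genes of the pathway gave no call between genotypes either, and the lists they come from were chosen with earlier results of these data known. Of 22 regulators listed 8 were measured, with 4 higher and 4 lower in transgenic liver and 0 past the threshold (median -0.010). The coactivator Ppargc1b differed by -0.32 (SE 0.16), Foxo1 by -0.26 (SE 0.14), the E-box factor Usf1 by 0.13 and Insig1, which retains SREBP in the endoplasmic reticulum, by -0.30 (SE 0.40). Insig1 was higher in the 6 animals of highest Fads2, from 8.35 to 9.00 on the log2 scale, than in all others, which reached 7.56. Of the 8 regulators measured it alone separated these animals, and 4.61% of all tested probes were higher in this way. Srebf2, the gene of SREBP-2, overlapped between them, with 6.40 to 7.01 against 6.08 to 6.72. Srebf1 and Mlxipl, the genes of SREBP-1c and ChREBP, were not analysed here.

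Of 17 further desaturase and elongase genes 6 were measured, 4 higher and 2 lower, with 0 past the threshold (median 0.12). Scd2, a stearoyl-CoA desaturase, differed by 0.66 (SE 0.47). It was lower in the 6 animals (7.37 to 7.85) than in all others (8.75 or more), opposite to Fads2. Hacd4 was lower in them too (6.20 to 6.54 against 6.67 to 7.17). Hsd17b12 was higher, as Fads2 was (10.23 to 10.55 against 9.70 to 10.07). Of all tested probes 5.96% were lower in this way and 4.61% higher. Hacd3, a dehydratase of the elongation cycle, differed by -0.17 (SE 0.080), Elovl1 by 0.14 and Hacd1 by 0.18. Genes that supply NADPH had 4 of 9 measured, 3 higher (median 0.19), with Pgd at 0.46 (SE 0.21), Tkt at 0.24 (SE 0.13), Taldo1 at 0.13 and Idh1 at -0.048. Of 14 genes of carbon supply 4 were measured, with Mlycd at -0.17, Pfkl at -0.076 and Pdhb at 0.013 (median -0.031). Mitochondrial fatty acid synthesis had 2 of 9 measured, Oxsm at -0.13 and Lias at -0.0034. No member of these lists passed the threshold.

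Acyl-CoA activation and uptake had 4 of 15 genes measured (median -0.13), with the long-chain synthetase Acsl1 at -0.47 (SE 0.27), the transporter Slc27a2 at -0.31 (SE 0.14), Acsl4 at 0.065 and Acss1 at 0.053. Glycerolipid assembly had 4 of 16 measured (median 0.021), with Mogat1 at 0.26 (SE 0.22), Gpat3 at -0.075, Lpin2 at 0.059 and Gpat4 at -0.018. Lipid droplet genes had 3 of 14 measured (median 0.091), with Plin4 at 0.14, Fitm2 at 0.091 and the lipase Pnpla2 at -0.050. Fatty acid oxidation had 6 of 18 measured, 5 of them lower (median -0.096), led by Cyp4a10 at -0.41 (SE 0.18), with Acaa1a at -0.11, Acaa1b at -0.080 and Hadhb at -0.083. Again 0 members passed the threshold.

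**Figure D5:**
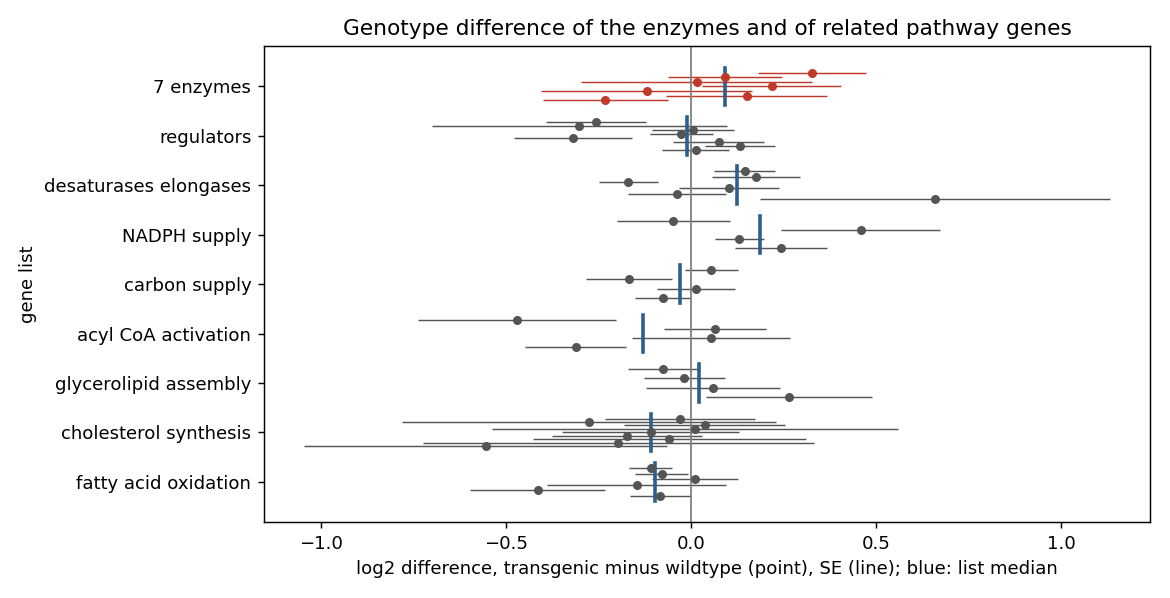
Log2 difference between genotypes (horizontal axis, transgenic minus wildtype; points, genes; lines, SE; blue bars, list medians) for the 7 enzymes (red) and 8 lists of related genes (grey). No gene shown passed the threshold, and the list medians lie between -0.13 and 0.19.

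Cholesterol synthesis genes were, of the 10 pathway lists, the one with the highest share of members ordered as Acss2 and Fads2 were. Of 22 listed 9 were measured, and 7 of these 9 (77.8%) were higher in the 6 animals than in each of the other 10, beside 4.61% of all tested probes. Fdps, farnesyl diphosphate synthase, ran from 10.57 to 11.82 in the 6 animals and from 8.83 to 9.78 in the others. Cyp51 ran from 8.94 to 9.85 against 7.00 to 7.42, and the sterol carrier Stard4 from 11.07 to 11.67 against 8.80 to 10.08. Between genotypes 7 of the 9 were lower and 0 passed (median -0.11), with Stard4 at -0.56 (SE 0.49), Hmgcs1 at -0.17 and Cyp51 at -0.28.

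Genes whose pattern was most like the mean of the 7 standardised enzymes over the 16 animals included members of this list. Among the 8 highest correlations were those of Lss (0.81), Acat2 (0.80), Paox (0.80), Dera (0.79) and Nat8f3 (0.78). Lss, lanosterol synthase, and Acat2, a cytosolic acetoacetyl-CoA thiolase, act in cholesterol synthesis. The animals fall into separate sets, so the values within them are given too: for Lss 0.80 in the 6 animals and 0.84 in the 10, and for Acat2 0.96 and 0.34. Nat8f3 was not above background on 10 arrays and gave -0.25 within the 10. The 4 lowest were Unc119b (-0.90, with -0.95 and -0.69 within the sets), Fam13b (-0.81), Tmem82 (-0.79) and Cdc42ep2 (-0.79). These are descriptions over 16 animals, for genes read on the same arrays with the same normalization, and no test was made.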

How the data were processed

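Biotin-labelled cRNA of total liver RNA was read on Illumina bead arrays, 1 per animal. The authors' deposited table gives intensity on a linear scale for 24048 probes. BeadStudio 1.5.1.3 was the software, per the submitters' processing notes, and how arrays were scaled is not stated. Between 30.0% and 33.8% of the values of an array are negative, so a background was taken off, and the array means lie close together at 331.4 to 333.5. The 128 per-sample columns of a further deposited table carry chip positions that no label ties to an animal, so these and any slide block were not used.

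With limma 3.58.1 under R 4.3.3, normexp was applied per array (saddle, offset 16), followed by log2 and quantile normalization. A probe was detected above 1.645 times the root mean square of its array's negative values (a limit of 17.1 to 32.5 units), and tested when detected on at least 6 arrays. The gene number in 9523 identifiers named 8884 probes through RefSeq (93.3%), and 9 more were named by accession. Where a gene had several named probes, the brightest on average stood for it. The genotype test was limma's lmFit with eBayes (two-sided, Benjamini-Hochberg over 11317 probes, threshold 0.05). It was also run on simulated data, with results not given here. That run does not show whether differences as small as those of the enzymes would be found. The number of arrays limits the precision, and SD includes biological and technical spread. Correlations used all 720 orders for 6 animals and 100000 permutations for 10, two-sided, adjusted over 42 tests.

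The members and lists were chosen with earlier results of these data known. Named were the 7 enzymes, up to 4 genes of smallest p per list, and the 8 highest and 4 lowest correlations with the mean enzyme score, of which some are not reported here. Genes singled out for the order of animals were chosen after their values were seen. Results for lists of other cell types stand in the closing section.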

Additional observations from a re-analysis of the deposited data

Results flagged for a closer look

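Acly in wildtype liver had a highest animal, replicate 1, far from the others. Its log2 level of 12.12 was separated from the next wildtype animal by a gap of 0.604 of the group's whole range, where the critical value for 9 animals is 0.493. The same animal also had the highest Fasn level of all 16. Of 14 groups of values examined (7 enzymes in 2 genotypes) this was the single one to stand out, and chance flags about 1 in 20 such groups.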

How the results depend on the processing

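Under 13 other settings and with each of the 16 animals left out in turn, 0 probes and 0 of the 7 enzymes passed the threshold (lowest adjusted p of any probe 0.150, of any enzyme 0.402). Leaving out an animal moved the Acaca difference between 0.26 and 0.38 and its unadjusted p between 0.0178 and 0.0934. The median difference of the enzymes ran from 0.019 to 0.187 without single animals and from -0.046 to 0.203 otherwise. Acss2 turned sign with array weights (-0.23), with the title number as a fixed replicate block (-0.21) and without any of 7 animals (its range over animals left out was -0.21 to 0.15). Fads2 turned with the first principal component as a covariate (0.20). Title numbers 9, 12 and 13 occur in both genotypes, and the mean deviations of the animals sharing them correlated between genotypes at -0.13, -0.56 and -0.40. The labels do not state what the title number stands for, so these values cannot show whether it pairs animals. As a fixed replicate block it turned Fasn (-0.046) and Acly (-0.042), moved Fads2 to -0.42 (SE 0.34) and Gpam to -0.48 (SE 0.23), left 2 enzymes with a higher mean and gave 1509 probes an unadjusted p under 0.05. That count was 875 with no filter on dim probes, 1197 with array weights and 219 to 797 without single animals. The number of correlated pairs past the threshold, 1, became 0 with no normalization beyond the authors' scaling and ran from 0 to 2 without single animals; with 1 of the 6 animals left out, the remaining 5 were not tested. Without normexp the Gpam difference was -0.39 (SE 0.36). Gpam was not tested on probes detected on all arrays. Each enzyme has 1 probe, so averaging probes changed nothing. The cause of these changes was not tested.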

Other observations

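Markers of other liver cells gave no call between genotypes (limma, 0 members past the threshold in each list). Macrophage markers had a median difference, transgenic minus wildtype, of 0.85. All 6 measured ones were above 0, where 48.7% of all tested probes were. Mmp12 was at 0.95 (SE 0.74), Lyz2 at 0.85 (SE 0.69), Cd63 at 0.86 (SE 0.71) and Csf1r at 0.18. Of these markers 5 were lower in each of the 6 animals of highest Fads2 (2 transgenic and 4 wildtype) than in every other animal. The part of this uneven split in the differences was not tested. Gpnmb, Mmp12 and Cd68 entered the tested probes through the other 10 animals alone. All 3 endothelial markers were higher, Clec4g at 0.11, Emcn at 0.10 and Pecam1 at 0.073. Of 5 stellate cell and fibroblast markers 4 were higher, with Colec11 at 0.11, Dcn at 0.12, Col3a1 at 0.22 and Col1a1 at 0.20. Spp1 differed by 0.62 (SE 0.45) and Cldn4 by -0.017 among bile duct markers, and Ighm by -0.31, Cd3e by -0.025 and Igkc by -0.028 among lymphocyte markers. Among hepatocyte markers Serpina1a differed by -0.31 (SE 0.30), Trf by 0.039, Apoa2 by 0.038 and Ass1 by 0.058. Of the genes listed as adipocyte markers, Car3 differed by -0.20 and Fabp4 by 0.087.

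Genes nearest to single enzymes were looked up after the values were seen, and their correlations are a description. Among the 10 animals outside the 6 of highest Fads2, Fasn gave 0.77 with Crebbp, the coactivator gene, and 0.84 within the 6. Acly gave 0.62 and 0.87 with Pdhb, a subunit of the pyruvate dehydrogenase that feeds citrate synthesis. Over all 16 animals Pdhb (0.783) was not the nearest gene to Acly, since Rwdd3 (0.864) and Rsrc2 (0.786) were nearer. Acaca gave 0.42 and 0.85 with Tkt, the transketolase of the pentose phosphate pathway. Over all 16 animals Ehd4 (0.827) and Slc39a11 (0.822) were almost as near to Acaca as Tkt (0.829).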
